A study of Rattus norvegicus with 2 samples.

Results

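Immediate early genes are transcribed within minutes of a stimulus without new protein synthesis, and several of them rise when a tissue is taken apart with enzymes at body temperature. Their level in a digested sample is therefore widely read as a trace of dissociation. Fos, Fosb, Jun, Junb and Jund encode subunits that pair into the transcription factor AP-1. Egr1 and Atf3 encode a zinc finger and a bZIP transcription factor of the same early wave, and Ier2 encodes a nuclear regulator. Dusp1 and Zfp36 encode feedback proteins: DUSP1 is a phosphatase that switches off MAP kinases, and ZFP36 binds AU-rich messengers and promotes their decay. In muscle, these genes are known to be induced in satellite cells during isolation.

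These 10 genes were chosen by name and matched by exact symbol to the rows of each species. The mouse reference held a row for all 10, among 25906 mouse rows. The rat reference held a row for 8 of the 10, among 23373 rat rows, because no rat row carried the name Junb or Dusp1. Sums over the members therefore use the 8 genes with a row in both species.

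Whole-body skeletal muscle was collected from 1 rat-mouse chimera and 1 SD (Sprague-Dawley) rat and profiled by 3′ single-cell RNA-seq, which counts unique molecular identifiers (UMIs). The chimera was an SD rat host that had received, at the morula stage, mouse iPSCs carrying the Dmd mdx mutation edited to restore the reading frame and a Pax7-nGFP reporter, from an edited clone; the control was an SD rat without injected cells. Ages and sexes of the animals were not given in the labels. Both tissues were minced, digested in 0.2% collagenase II at 37 °C for 90 min, treated to lyse red cells and sorted for live cells, so both were digested alike and no undigested sample was analysed here. Values below are levels after dissociation, and the part of a level that was induced by it was not tested.

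There was a single library on each side, so no comparison between the animals is backed by replicates and no p-value is given. The chimera library held 118872850 UMIs over 13299 barcodes and the SD rat library 70957559 UMIs over 10117 barcodes, of which 11730 and 8816 were kept. Only 43 barcode sequences occurred in both. Chimera cells with at most 20% of their UMIs on mouse rows were counted as rat cells (8230), those with at least 80% as mouse cells (1847), and 1653 mixed barcodes were left out. Cells were placed in classes by markers: fibro-adipogenic progenitors (FAPs), tenocytes, myogenic progenitors (MPs), myocytes, endothelial cells (ECs), mural cells, Schwann cells, macrophages, neutrophils or monocytes, T or NK cells, B cells and mast cells. A class name means only that a cell carried that class's markers, with at least 3 of them raised. A class was found for 70.6% of cells in the SD rat, for 76.5% of the chimera's rat cells and for 81.6% of its mouse cells, and at least 93.9% of placed cells lay in a cluster of the same name. Among the classes described, this share was lowest in mouse macrophages (26.5%) and chimera rat mural cells (75.5%). Classes with fewer than 20 cells are not described. Levels are UMIs of a gene per 1000000 UMIs on rows of the cell's own species (CPM), summed over a class. Intervals are exact 95% Poisson intervals for sums and exact 95% binomial intervals for shares, and they cover counting error within a library only.

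Promoter sequences of 7 of the 10 genes were found by symbol in the RefSeq table of the rat build GRCr8 (250 bases before to 50 after the annotated start), and those of Fos, Jun and Atf3 were not in it. The cyclic AMP response element TGACGTCA, on either strand, lay in 3 of the 7 promoters (Dusp1, Ier2 and Jund), against 1.59% of 33469 promoters in the table. Its shorter form TGACG, which every full element contains, lay in 5 of 7 (also Egr1 and Junb), against 18.2% of promoters. The serum response element lay in 2 of 7 (Egr1 and Zfp36), against 1.50%, and the AP-1 element TGANTCA in 0 of 7, against 6.34%. These elements are shown because they are the textbook entry points of calcium, cyclic AMP and serum signals to early genes, and a match is a string of letters, not a measured site. The windows below are 30 bases long, written 5′ to 3′ on the gene's strand with the element in capitals. The element starts 124 bases before the annotated start of Dusp1 (chr10:17184718-17184747, plus strand), 66 before that of Ier2 (chr19:40399296-40399325, plus strand), 221 before that of Jund (chr16:18769974-18770003, minus strand) and 32 before that of Zfp36 (chr1:92799121-92799150, minus strand).
Dusp1, cyclic AMP response element: ggcagggcgggTGACGTCAccacccggtca
Ier2, cyclic AMP response element: tggcgtttcagTGACGTCActcttactcta
Jund, cyclic AMP response element: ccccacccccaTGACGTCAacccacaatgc
Zfp36, serum response element: ccgggccgccCCATAAAAGGcgaaagctcc

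The first question was which cell types carried the response. In the SD rat, the summed level of the 8 genes was highest in mural cells (9540 CPM, 9291 to 9794), FAPs (8470, 8433 to 8507), ECs (8105, 8014 to 8197), MPs (7341, 7211 to 7473) and tenocytes (6943, 6865 to 7022), and their counting intervals did not overlap. Schwann cells (4783), mast cells (4491) and macrophages (3440) followed. T or NK cells (1664), neutrophils or monocytes (1526), B cells (1236) and myocytes (890) were lowest. The intervals of Schwann and mast cells overlapped, as did those of T or NK cells with neutrophils or monocytes, and of neutrophils or monocytes with B cells. The early genes thus made up a far larger part of the UMIs in stromal, vascular and myogenic progenitor cells than in myocytes, the cells that carry the contractile markers. Myocytes also had a median mitochondrial share of 0.918%, against 4.22% in FAPs. Whether their barcodes held whole cells was not tested.

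The chimera gave a similar split. Among its rat cells the summed level was 12244 CPM in FAPs, 9781 in mast cells, 9417 in tenocytes, 8957 in mural cells, 8324 in ECs, 7021 in Schwann cells and 6843 in MPs, against 2738 in macrophages and 631 to 1290 in neutrophils or monocytes, B cells, myocytes and T or NK cells. Mast cells and tenocytes overlapped in their intervals, and so did Schwann cells and MPs. Among mouse cells the order was Schwann cells (11245, from 22 cells), FAPs (10113), ECs (7096), tenocytes (6696), MPs (3936), macrophages (1676), T or NK cells (936), B cells (763) and myocytes (630), of which the last pair overlapped. All 6 of the FAP, tenocyte, mural, EC, MP and Schwann classes in each rat population, and all 5 measured in mouse cells, lay above the highest of the macrophage, lymphocyte and myocyte classes. This grouping of classes was made after the values had been seen.

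**Figure D1:**
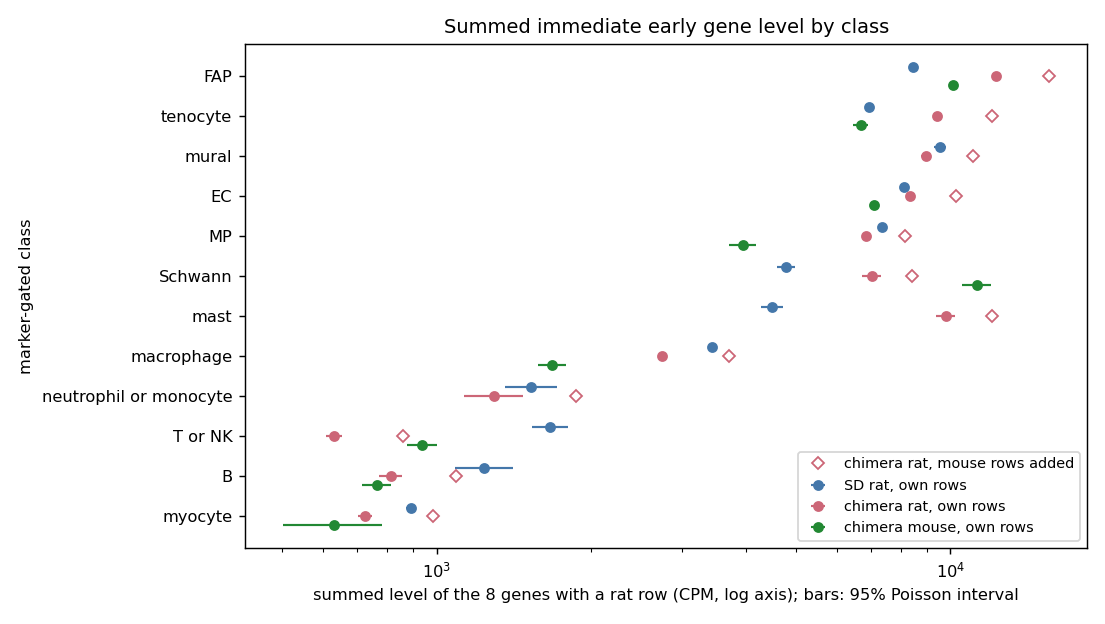
Summed level of the 8 early genes with a rat row (CPM on own-species rows, log axis) in each marker-gated class of SD rat (blue), chimera rat (red) and chimera mouse cells (green), with 95% Poisson bars. Open diamonds add the mouse rows in chimera rat cells, which moves FAPs from 12244 to 15564 CPM. Points run from 630 CPM in mouse myocytes to 12244 CPM in chimera rat FAPs on own rows.

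Counting intervals treat UMIs as independent, but the early genes were unevenly spread over the cells of a class. The 10% of cells with the most such UMIs held 41.7% of the summed UMIs in SD rat FAPs, 34.7% in mural cells and 53.0% in tenocytes. The share reached 81.4% in chimera rat myocytes and 77.4% in chimera rat mast cells, where a single cell held 809 of 1994 UMIs. In SD rat T or NK cells, 1 of 47 cells held 211 of 608 UMIs, and without that cell the level was 1163 CPM. Levels of these 3 classes rest on few cells.

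**Figure D2:**
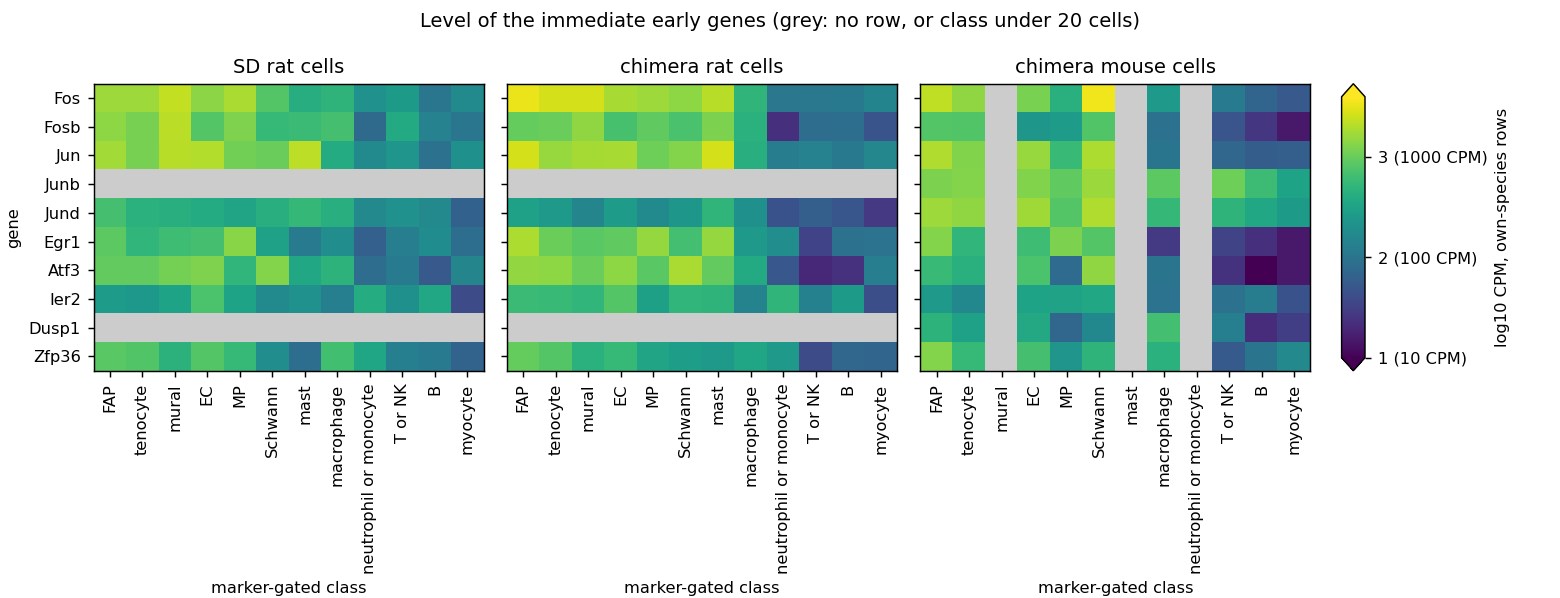
Level of each of the 10 genes (log10 of CPM on own-species rows, colour) by marker-gated class (columns) in SD rat, chimera rat and chimera mouse cells. Grey marks genes without a row (Junb and Dusp1 in rat cells) or classes under 20 cells. Fos and Jun are bright in the left columns of all panels, and myocytes and B cells are dark for most genes.

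Fos, the AP-1 subunit most used as an activity marker, was at 2316 CPM in SD rat mural cells, 1873 in MPs, 1661 in tenocytes, 1637 in FAPs and 1421 in ECs, against 489 in macrophages and 106 to 263 in myocytes, B cells, T or NK cells and neutrophils or monocytes. Its chimera rat levels ran from 107 CPM in neutrophils or monocytes to 3353 in FAPs, and its mouse levels from 53.2 in myocytes to 3483 in Schwann cells. After each cell was thinned to 1000 UMIs, 42.7% of SD rat FAPs, 56.6% of chimera rat FAPs and 50.5% of mouse FAPs had a Fos UMI, against 10.9%, 10.9% and 8.59% of B cells. Without thinning, 79.0% of SD rat FAPs had one. Fos was thus above the median of the other classes in FAPs, tenocytes and ECs in all 3 populations. In MPs its log2 ratio to that median was 1.94 in the SD rat, 0.19 in chimera rat cells and -0.71 in mouse cells. Mast cells had 420 CPM in the SD rat and 2099 in chimera rat cells. The spread among SD rat FAPs was wide: the median was 285 CPM and the quartiles were 71.3 and 1681.

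Fosb, a Fos relative that also forms AP-1, was at 2145 CPM in SD rat mural cells and 1447 in FAPs, and at 78.9 in neutrophils or monocytes. Jun, the main partner of the Fos proteins, was at 2175 CPM in SD rat mast cells, 2106 in mural cells and 2012 in ECs, and at 95.1 in B cells. Jund, the AP-1 subunit known for high expression in resting cells, ran from 64.2 CPM in myocytes to 674 in FAPs among SD rat classes. Jund was also the gene most evenly shared among SD rat FAPs, where the top 10% of cells held 25.9% of its UMIs, against 62.5% for Fos and 64.4% for Atf3.

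Junb, a Jun relative that can restrain Jun, could be measured in mouse cells only. Its mouse level was 1222 CPM in FAPs, 1286 in ECs, 1301 in tenocytes, 1630 in Schwann cells and 925 in MPs, and it remained at 1059 in T or NK cells, 889 in macrophages and 607 in B cells. Unlike Fos, mouse Junb was detected in B cells about as often as in stromal cells, with 47.7% of B cells, 48.2% of T or NK cells and 51.5% of FAPs holding a UMI after thinning. Against the median of the other mouse classes, Junb was 2-fold away only in myocytes, at a log2 ratio of -1.83.

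Egr1, the serum-responsive zinc finger factor, differed in order from the AP-1 genes. Its highest SD rat level was in MPs (1382 CPM), ahead of FAPs (891), ECs (685) and mural cells (625), and its lowest was in neutrophils or monocytes (63.1). After thinning, an Egr1 UMI was held by 58.5% of SD rat MPs, 64.8% of chimera rat MPs and 51.7% of mouse MPs, although mouse FAPs had nearly the same share (50.5%). The gene was also spread over many MPs, with a median of 1188 CPM per SD rat MP. Set against the median of the other classes, MPs had Egr1 log2 ratios of 2.85 in the SD rat, 1.19 in chimera rat cells and 2.16 in mouse cells. FAPs stood higher than MPs in the chimera, at 1.50 in rat cells (1895 against 1536 CPM) and 2.26 in mouse cells (1323 against 1231 CPM), so MPs led for Egr1 in the SD rat only.

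Atf3, a stress-induced factor that represses many of its targets, was highest in Schwann cells in each population, at 1324 CPM in the SD rat, 1842 in chimera rat cells and 1477 in mouse cells. ECs were next in the SD rat (1257), and B cells were lowest (52.8). Ier2 had another order again. ECs led in SD rat cells (739 CPM) and chimera rat cells (798). Neutrophils or monocytes, low for most other early genes, had 410 CPM in the SD rat, next after ECs, and 504 in chimera rat cells. SD rat B cells, low for Fos and Jun, had 364 CPM of Ier2, and 34.8% of them held a UMI after thinning.

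The feedback gene Zfp36 was at 864 CPM in SD rat FAPs, 797 in ECs, 782 in tenocytes and 643 in macrophages, and at 67.0 in myocytes. Macrophages, which express Zfp36 as a brake on cytokine messengers, stood closer to the stromal cells for this gene than for Fos. The other feedback gene, Dusp1, could be measured in mouse cells only, and there macrophages led with 661 CPM, ahead of FAPs (480), ECs (371) and tenocytes (307), while MPs had 72.6 and B cells 21.6. Macrophages were at a log2 ratio of 2.15 above the median of the other mouse classes for Dusp1, in 49 cells of which few lay in a macrophage cluster.

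Counted over genes and classes, 24 of 96 SD rat values were 2-fold or more above the other classes' median and 31 were 2-fold or more below it, against 19.4% and 18.8% of all gene-class values. In chimera rat cells these counts were 11 and 34 of 96, against 18.2% and 17.5%, and in mouse cells 31 and 36 of 90, against 19.9% and 22.3%. These shares over all genes are pooled over classes. No share was computed for a single class, so the counts per class that follow have no background to be read against. SD rat FAPs, ECs and mural cells each held 5 of the 8 genes above, tenocytes 4 and MPs 3. All 8 genes in myocytes, and 6 of 8 in B cells, T or NK cells and neutrophils or monocytes, lay below. In chimera rat cells, FAPs held 4 of the 11 values above and mast cells 3, while ECs held 0 and mural cells 1. In mouse cells, FAPs held 8 of 10 genes above, ECs and Schwann cells 7 each and tenocytes 6. The values below the median fell mostly in blood cells and myocytes, and those above it were spread differently in each population.

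Many cells of some classes held several early genes at once. With every cell thinned to 1000 UMIs, 40.4% of SD rat FAPs (38.3 to 42.6), 54.6% of chimera rat FAPs (52.4 to 56.8) and 56.3% of mouse FAPs (46.2 to 66.1) had a UMI of at least 4 of the 8 genes. In ECs the shares were 44.0%, 48.3% and 40.9%, in MPs 39.5%, 36.1% and 24.1%, and in macrophages 17%, 15.9% and 0 of 49 cells, for which the exact interval reaches 7.25%. In B cells they were 2.17%, 0.571% and 0.781%. At the other end, 5.08% of SD rat FAPs, 5.82% of chimera rat FAPs and 6.80% of mouse FAPs had none of the 8, against 61.9%, 77.4% and 63.3% of myocytes.

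**Figure D3:**
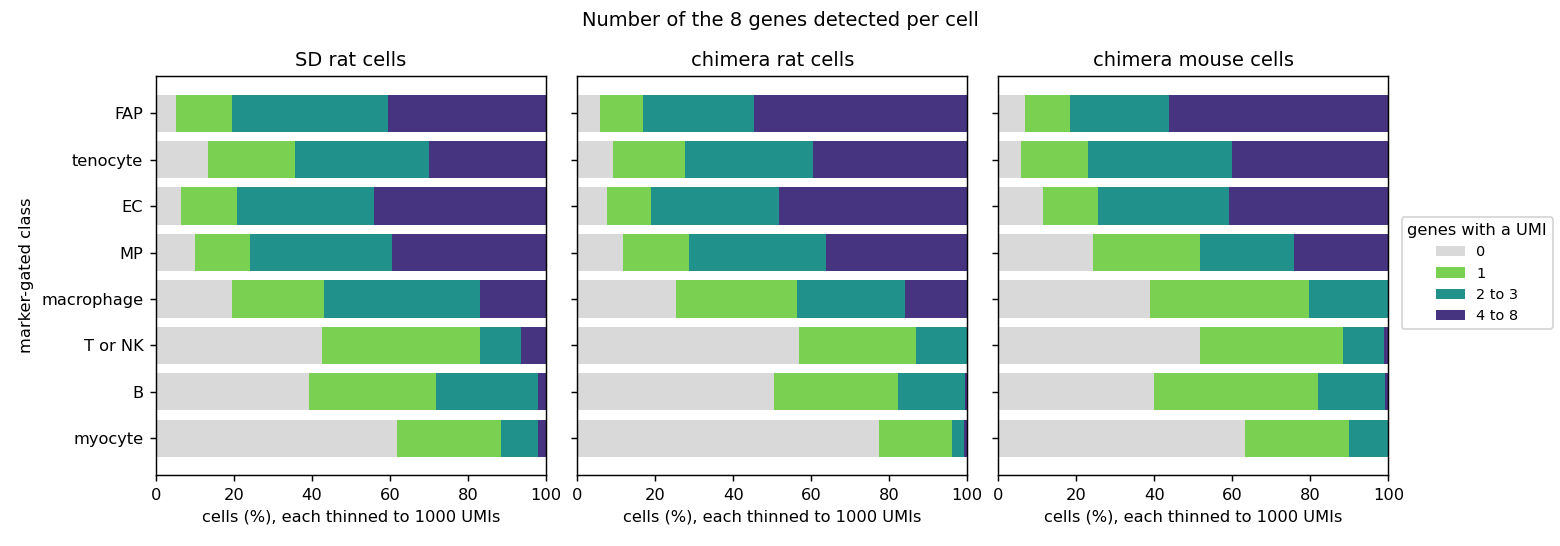
Share of cells (%) with a UMI of 0, 1, 2 to 3 or 4 to 8 of the 8 early genes after thinning every cell to 1000 UMIs, by class, in SD rat, chimera rat and chimera mouse cells. The share with 4 to 8 genes reaches 54.6% in chimera rat FAPs and 56.3% in mouse FAPs, and it is 2.17% or less in all 3 B cell and myocyte groups.

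In FAPs of both rat populations, cells with a Fos UMI more often held the other early genes. In the SD rat, 75.2% of cells with Fos also had Jun, against 28.2% of cells without it, and for Egr1 the shares were 60.0% and 26.5%, for Atf3 56.7% and 15.8%, and for Ier2 29.3% and 10.4%. Jund differed least in these cells, at 47.2% and 41.7%. In chimera rat FAPs the Jun shares were 85.1% and 33.8% and the Jund shares 25.5% and 24.2%, and in mouse ECs the Jun shares were 74.0% and 44.5% and the Atf3 shares 47.2% and 25.2%. Jund differed more in other cells, at 75.2% and 51.3% in mouse ECs, 78.8% and 56.9% in mouse FAPs and 55.0% and 27.8% in SD rat macrophages. In mouse FAPs, Ier2 was found in 11.5% of the 52 cells with Fos and in 15.7% of the 51 without. Fosb was found there in 46.2% and 45.1%. Egr1 was found in 64.7% of SD rat MPs with Fos and in 53.9% of those without. Jun, Egr1 and Atf3 were thus found more often in FAPs with Fos, while the gap for Jund depended on the cell type and the population. Cells of a class share 1 library and 1 digestion, so these shares are descriptions.

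Cycling cells gave a further split of MPs. SD rat MPs with at least 3 of 8 cell cycle markers (44 cells) had a summed level of 5065 CPM, against 8545 in the other 156. Fos was at 1272 against 2191 CPM, Fosb at 550 against 1625 and Egr1 at 958 against 1607, whereas Ier2 was at 378 against 295. In chimera rat MPs the sums were 6040 CPM (47 cells) and 7160 (183 cells), with Fosb at 669 against 1029 and Ier2 at 412 against 257. The gap between cycling and other MPs was thus wider in the SD rat, and Ier2 ran the other way in both. Mouse MPs held 3 cycling cells and are not split.

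Other genes followed the same order of classes. Over the 12 classes, the mean of log2(CPM + 10) of the 8 genes was compared with every gene that reached 50 CPM, 6018 in number, and the lower of the SD rat and chimera rat correlations was ranked. Outside the members, the 10 genes most alike were Selenon, Atf6, Camk1, Samd4a, Tubb6, Hspa8, an unnamed gene (ENSRNOG00000050647), Wls, Cdc42bpa and Rrbp1, with Pearson's r of 0.92 to 0.88 over 12 points. The points share libraries, digestion and depth, and many genes are high in stromal and low in blood cells. The members themselves ranked between 1 (Fos) and 1416 (Ier2, r = 0.47), so Ier2 was the member least like this mean across classes. Each member is part of the mean, which raises its own correlation, so high ranks of members are built in.

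The next question was whether rat cells in the chimera differed from those of the SD rat. A limit comes first. Reads of chimera cells could fall on rat or mouse rows, and reads of SD rat cells on rat rows only. In chimera rat cells, mouse rows took 56.0% to 65.0% of Jund UMIs, 50.2% to 57.3% of Zfp36 UMIs and 24.2% to 37.3% of Fos UMIs, over the classes with at least 100 UMIs of the gene. For Fosb, Jun and Egr1 the median over classes was 7.41%, 6.71% and 5.86%, and for Atf3 and Ier2 it was 0.516% and 0.588%. The mouse Junb row, which has no rat partner, held 101 to 1270 CPM in chimera rat classes, and the mouse Dusp1 row 17.7 to 103 CPM. In mouse cells the rat rows took 0.258% of Jund and 2.48% of Fos UMIs in the median class. The share on mouse rows thus differed between genes far more than between cell types, and the comparisons below are on rat rows, with values for both rows added beside many of them.

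**Figure D4:**
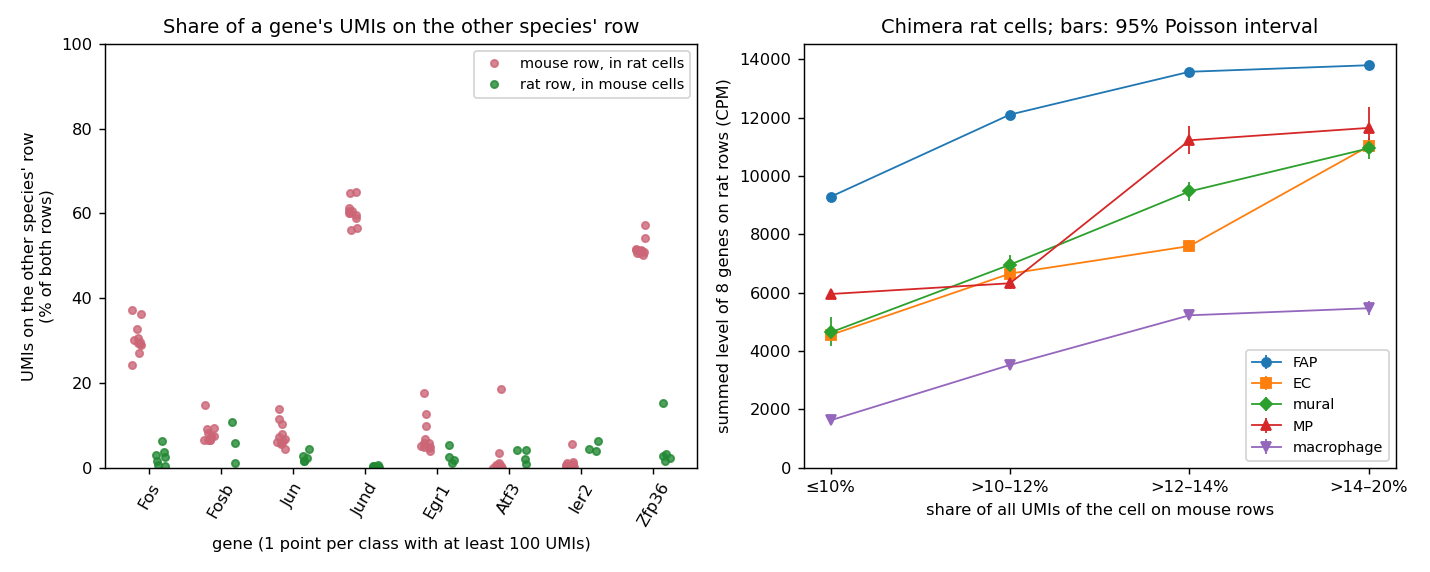
Left, share of each gene's UMIs (%) on the mouse row in chimera rat cells (red) or on the rat row in chimera mouse cells (green), 1 point per class with at least 100 UMIs. Right, summed level of the 8 genes on rat rows (CPM) in chimera rat cells grouped by the share of all their UMIs on mouse rows, with 95% Poisson bars. Jund and Zfp36 lie at 50.2% to 65.0% and Fos at 24.2% to 37.3%, and FAPs rise from 9289 to 13802 CPM.

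Over the 8 genes in FAPs, tenocytes, MPs, myocytes, ECs, mural cells, macrophages and T or NK cells, 5 of 64 values were at least 2-fold higher in chimera rat cells and 11 were at least 2-fold lower on rat rows, against 2.51% and 3.69% of all gene-class values. Mast cells (6 of 8 higher), Schwann cells (2 higher), B cells (2 lower) and neutrophils or monocytes (none of the 4 genes with enough UMIs) were not in this count, although T or NK cells, with 47 SD rat cells, were. No share over all genes was computed for the classes left out, so their counts have no background to be read against. With both rows added, 9 of 64 were higher and 3 lower, against 4.44% and 2.42% of all gene-class values counted the same way. The balance of higher and lower values thus turned with the rows counted.

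Several of the genes differed in FAPs. In 2012 chimera and 2067 SD rat FAPs, Fos was at 3353 and 1637 CPM, a log2 ratio of 1.03 (1.02 to 1.05), or 1.56 with mouse rows. Egr1 was at 1895 and 891 CPM (log2 1.09) and Ier2 at 586 and 270 (1.12). These 3 of 8 genes passed 2-fold upward, against 0.904% of 11728 genes. Atf3 was at 1498 and 956 CPM (0.65) and Jun at 2687 and 1731 (0.63). Fosb went the other way, at 958 and 1447 CPM (-0.59, and -0.45 with mouse rows). Jund was at 309 and 674 CPM (-1.12), the only one of the 8 past 2-fold downward, against 1.58% of genes, and its ratio was 0.20 with mouse rows. Zfp36 stood at 957 and 864 CPM (0.15) and at 1.18 with mouse rows. By either count of rows, Fos, Egr1 and Ier2 were higher and Fosb was lower, and Jund and Zfp36 depended on the rows. Fos was short of 2-fold with Leiden clusters (0.96), with the mean of per-cell CPM (0.93), with thinned cells (0.92, where Ier2 was just short as well) and in chimera cells with at most 10% of UMIs on mouse rows (0.48). In those last cells Egr1 was at 0.80 and Ier2 at 1.01.

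In tenocytes, Ier2 was at 581 and 244 CPM (log2 1.25) and Egr1 at 1044 and 514 (1.02), so 2 of 8 genes passed 2-fold upward, against 1.18% of 8574 genes, and 0 downward, against 2.34%. Fos was at 2707 and 1661 CPM (0.70, and 1.22 with mouse rows), and Fosb at 1013 and 1166 (-0.20). Jund was lowest here (257 and 460 CPM, -0.84), and it was at 0.47 with mouse rows. Zfp36 was at 804 and 782 CPM (0.04), and at 1.09 with mouse rows.

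MPs hold the muscle stem cells. None of the 8 genes passed 2-fold in 230 chimera and 200 SD rat MPs, against 1.17% of 6647 genes upward and 3.29% downward, and this is a count of values past a fold, with no test. Fos was at 1641 and 1873 CPM (log2 -0.19, -0.27 to -0.12, but 0.21 with mouse rows), Egr1 at 1536 and 1382 (0.15) and Jun at 1068 and 1122 (-0.07). Atf3 was at 864 and 511 CPM (0.76, 0.64 to 0.88), the highest ratio in this class. Jund was at 174 and 329 CPM (-0.92, and 0.36 with mouse rows) and Zfp36 at 332 and 546 (-0.72, and 0.29 with mouse rows). The summed ratio was -0.10, and 0.15 with mouse rows.

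In ECs 0 of 8 genes passed 2-fold, against 2.47% of 8467 genes upward and 3.74% downward. Fos was at 1830 and 1421 CPM (log2 0.36) and Egr1 at 927 and 685 (0.44), and the sum was at 0.04, or 0.34 with mouse rows. In mural cells only Jund passed, downward (154 and 429 CPM, -1.48, and -0.14 with mouse rows), against 3.48% of genes upward and 4.67% downward. In macrophages only Jund passed, downward (200 and 436 CPM, -1.12, and 0.25 with mouse rows), against 2.64% upward and 1.92% downward. In myocytes Fosb (47.6 and 104 CPM, -1.12) and Jund (26.8 and 64.2, -1.23) passed downward, against 2.18% upward and 4.02% downward, and with mouse rows they were at -0.89 and 0.24, while Zfp36 passed upward (1.09, from 0.06 on rat rows). Jund was therefore the gene most often below 2-fold in these classes, and with mouse rows added none of those Jund values remained past it.

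**Figure D5:**
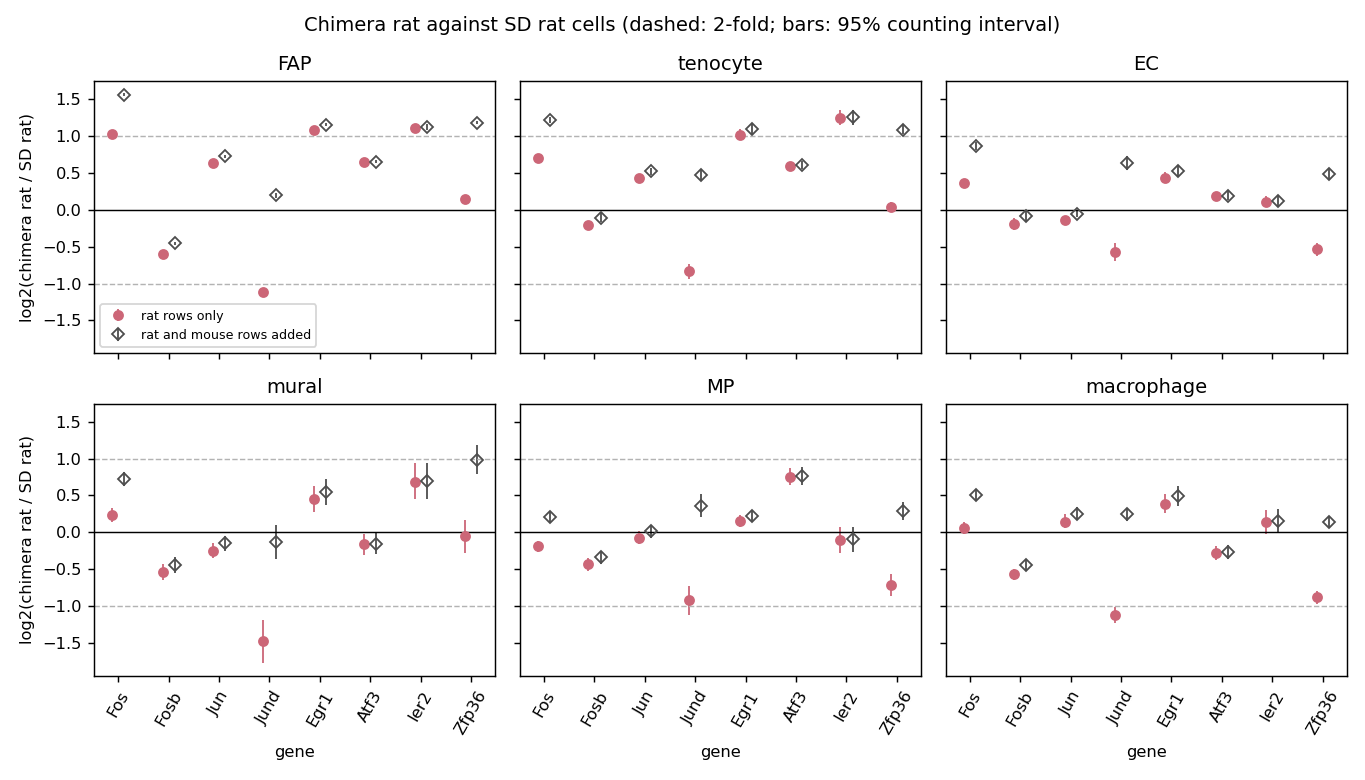
log2 ratio of CPM in chimera rat over SD rat cells for the 8 genes in 6 classes, on rat rows alone (filled) and with rat and mouse rows added (open), with 95% counting bars and 2-fold dashed. Fos, Egr1 and Ier2 in FAPs lie above the upper line by either count, and Jund moves from -1.12 to 0.20 in FAPs.

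T or NK cells, few in the SD rat, differed in the other direction. With 583 chimera and 47 SD rat cells, 6 of 8 genes were at least 2-fold lower, among them Fos (109 and 263 CPM, log2 -1.26), Fosb (85.8 and 391, -2.18) and Atf3 (19.3 and 118, -2.55), against 10.2% of 7188 genes downward and 7.57% upward. Without the 1 cell of each class with the most early gene UMIs, 4 of the 8 remained 2-fold lower, against 8.7% of genes. Atf3 then moved to -1.17, Egr1 from -1.90 to -0.59, Fos to -0.89, Jun from -0.64 to 0.10 and the sum from -1.40 to -0.91. With mouse rows added 3 of 8 were lower, against 7.67% of genes. They were Atf3 (-2.27), Fosb (-2.04) and Egr1 (-1.63), and the sum was at -0.95. In mast cells, 42 and 66 in number, Egr1 was at 1535 and 116 CPM (log2 3.72) and Fos at 2099 and 420 (2.32), and the top 10% of the chimera cells held 85.3% of the Egr1 UMIs. After thinning, 31.7% of chimera and 10.8% of SD rat mast cells had an Egr1 UMI.

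In several classes of chimera rat cells, the level of the early genes rose with the share of all their UMIs on mouse rows. In FAPs the summed level was 9289 CPM in cells with at most 10% on mouse rows, 12109 above 10% to 12%, 13578 above 12% to 14% and 13802 above 14% to 20%. ECs went from 4551 to 11029 CPM over the same groups, mural cells from 4638 (19 cells) to 10954 and macrophages from 1625 to 5469. MPs went from 5957 to 11654 CPM, with 12 cells in the last group. Other classes did not follow this order: tenocytes had 9175, 8725, 7363 and 11638 CPM, myocytes 474, 2375, 1201 and 366, Schwann cells 6659, 7208, 4997 and 10282, T or NK cells 580, 763, 1288 and 511, and B cells 730, 836, 1198 and 728. The last group held only 4 T or NK cells (245 to 941 CPM) and 10 B cells (461 to 1092 CPM). Over the groups before it, both of these classes rose. Schwann groups held 10 to 21 cells. The mouse rows of all 10 genes, Junb and Dusp1 included, held only 0.350% to 0.440% of FAP UMIs across these groups. Median depth ran the other way in FAPs, from 12284 to 8662 UMIs per cell. Of chimera rat cells, 34.9% had at most 10% on mouse rows. With that stricter limit the FAP sum ratio to the SD rat was 0.12 in place of 0.53, and that of ECs -0.85 in place of 0.04. The part of free RNA, shared reads and cell state in this relation was not tested.

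The last comparison set mouse cells against rat cells inside the chimera, where animal, digestion, sort and library were shared. The 2 species were measured on different rows, so a ratio also carries differences between the references. The background is accordingly wide: 17.5% of 10045 paired genes were at least 2-fold higher in mouse FAPs and 14.9% lower, 12.6% and 21.7% of 4904 in MPs, and 17.2% and 14% of 9024 in ECs. Of the 8 genes, 1 was higher and 2 were lower in FAPs, 1 and 3 in MPs, and 1 and 2 in ECs.

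Jund was the gene higher in mouse cells in all 3 classes, at 1660 and 309 CPM in FAPs (log2 2.42), 795 and 174 in MPs (2.19) and 1707 and 270 in ECs (2.66). With both rows added the ratios were 1.11, 0.91 and 1.46. Atf3 was lower in mouse cells, at 561 and 1498 CPM in FAPs (-1.41) and 80.3 and 864 in MPs (-3.41), and at 738 and 1427 in ECs (-0.95, short of 2-fold). Ier2 was lower in FAPs (250 and 586 CPM, -1.22) and ECs (320 and 798, -1.32) but not in MPs (313 and 301, 0.06). Fosb was lower in ECs (237 and 696 CPM, -1.55) and MPs (275 and 928, -1.75). With species limits of 90% and 10%, ECs were at -0.83 for Fosb and -0.24 for Ier2, and their summed ratio turned from -0.23 to 0.68. Under the same limits Jund stayed above 2-fold in all 3 classes (2.40 to 2.71), and in MPs Atf3 was at -3.24, Fosb at -1.38 and Fos at -1.53.

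Mouse MPs, 29 cells, stood lower than the rat MPs beside them for Fos as well. Fos was at 443 and 1641 CPM (log2 -1.89), and a Fos UMI was found after thinning in 31.0% of mouse MPs (15.3 to 50.8) and 43.0% of rat MPs (36.6 to 49.7). Atf3 was found in 10.3% (2.19 to 27.4) and 31.7% (25.8 to 38.2). These intervals overlap for both genes, but for Atf3 only from 25.8% to 27.4%, and the mouse intervals are wide at 29 cells. Overlap of intervals is not a test of a difference. Whether the shares differ was not tested, because cells of the same library are not replicates. Egr1 was close between the species, at 1231 and 1536 CPM (-0.32). The early gene profile of mouse MPs was thus led by Egr1, Junb (925 CPM) and Jund, with little Atf3 and Dusp1.

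Rat-row UMIs in mouse cells can be set beside these values, although they do not measure the background on the mouse rows. In mouse B cells, Egr1 was at 22.4 CPM on its own row and at 26.8 on the rat row, and Atf3 at 4.31 and 16.4, so these levels were no higher than the UMIs on the other species' row. In mouse FAPs the own rows of the same genes held 1323 and 561 CPM against 23.2 and 24.5.

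Lists of related genes put the 10 in context. Of 43 other immediate early genes, 42 had a row in both species. In FAPs their median log2 ratio of chimera rat over SD rat cells was 0.13, beside 0.09 for all genes, with 2 of 41 measured genes at least 2-fold higher and 2 lower, against 0.904% and 1.58% of all genes. Egr2, an Egr1 relative, and Nr4a1, an orphan nuclear receptor, were the 2 higher (1.36 and 1.03). Cebpb, a bZIP factor, was lowest (37 and 339 CPM, -3.17), and its ratio with mouse rows was 0.32. Klf4 was at -1.40, and at -0.32 with mouse rows. In MPs the median was -0.13, beside -0.01, with 0 higher and 5 lower of 37, against 1.17% and 3.29% of all genes. Of those 5, Cebpb and Zfp36l1 moved from -3.39 and -1.22 to 0.02 and 0.04 with mouse rows. Nr4a2, Klf4 and Plk2 moved from -2.07, -2.03 and -1.88 to -1.82, -1.11 and -1.68 and remained past 2-fold (Zfp36l1 and Plk2 were named after their values were seen). In mouse over rat MPs, Btg2, an antiproliferative early gene, was at 191 and 2078 CPM (-3.44), while Ppp1r15a, the stress phosphatase subunit, was at 199 and 3.03 CPM (5.63, and 4.63 with both rows).

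Heat shock genes, a second response to dissociation, had a row in both species for 9 of 11. Their median ratio in chimera rat over SD rat cells was 0.35 in FAPs, 0.37 in tenocytes and 0.31 in MPs, beside 0.09, -0.02 and -0.01 for all genes, and -0.12 in ECs and -0.40 in mural cells, beside -0.03 and -0.01. Dnajb1, an HSP70 co-chaperone, was at 1031 and 473 CPM in FAPs (1.12), the only one of the 9 past 2-fold there. On rat rows, the heat shock median in MPs was above 0 although that of the early genes was not, at 0.31 against -0.15 for the 8 genes. The summed ratio of the 8 genes in MPs was -0.10 on rat rows and 0.15 with mouse rows. The sign for the early genes thus depended on the rows counted.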

How the data were processed

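The authors deposited unnormalized UMI counts for each gene in each barcode, as Cell Ranger 7.1.0 produced them. Per the labels and headers, the chimera was mapped to rat mRatBN7.2 plus mouse GRCm39 and the SD rat to the rat genes alone. Barcodes were kept with at least 500 UMIs, 200 genes and at most 20% of UMIs on mitochondrial genes, and doublets predicted by Scrublet in scanpy 1.11.5 (444 of 12174 chimera and 164 of 8980 SD rat barcodes) were removed. A cell took the class with the highest share of raised markers, if at least 3 were raised and the share was at least 2 times that of the next class. This scoring rule and the grouping of classes were set after the data had been seen. The members and lists were chosen with earlier results of these data known.

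UMIs were summed per class and divided by all own-species UMIs. log2 ratios used 1 CPM as pseudocount, and a gene with at least 50 summed UMIs was counted as past the fold at 2. Cells were thinned to 1000 UMIs for shares. With 1 library per group no test was possible. All 10 members are named, and of each other list those among the 3 highest and 3 lowest ratios. The ratio code was tested on simulated data, where 200 of 200 changed genes were recovered in FAPs and in MPs, with 0 of 11476 and 7 of 6333 unchanged genes called. The simulated counts had Poisson error only, and the planted changes were larger than 2-fold. This checks the code, and it gives no error rate for the values past 2-fold in the real data. Alternatives were another gate, Leiden clusters (leidenalg 0.10.2) built without the early genes, filters, scalings, thinning, species limits and row sums. Promoters came from RefSeq (GRCr8).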

Additional observations from a re-analysis of the deposited data

Results flagged for a closer look

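Reads on mouse rows without a rat partner were found in rat cells of the chimera. The mouse Junb row held 43730 UMIs in the chimera rat cells placed in a class, with a median of 648 CPM over classes, and the mouse Dusp1 row held 3637 UMIs, with a median of 56.6 CPM. Both were picked out because they are counts on rows that no comparison between the libraries uses. The part of rat reads and of free mouse RNA in these counts was not tested.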

How the results depend on the processing

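With 1 library per group, no alternative replaces replicates. The classes above the macrophages, lymphocytes and myocytes in summed early gene level stayed within 1.5 times the main count of classes in all 3 populations under the 15 alternatives, 3 of them added after seeing the data. That range leaves room for a class to drop out, so it does not mean that every class stayed above in every alternative. The number of values at least 2-fold higher in chimera rat than SD rat cells was 5, against 2.51% of all gene-class values. It moved to 3 with Leiden clusters, 3 with the mean of per-cell CPM and 2 with a species limit of 90% and 10%. With rat and mouse rows added it was 9, against 4.44%. The number lower was 11, against 3.69%, and moved to 21 with that species limit and 3 with rows added, against 2.42%. With the limit, chimera rat mural cells fell under 20 cells and were not counted. The share of all genes lower rose there, from 2.34% to 11.9% in tenocytes, 3.74% to 12.4% in ECs and 4.02% to 11.3% in myocytes. It rose less in FAPs (1.58% to 2.92%), MPs (3.29% to 4.73%) and macrophages (1.92% to 3.1%). In T or NK cells it went from 10.2% to 9.8%. Jund reversed with rows added, to 0.20 in FAPs, 0.24 in myocytes and 0.25 in macrophages. A species limit of 70% and 30% moved no ratio by more than 0.10. The summed ratio in myocytes ranged from -1.58 (mean of per-cell CPM) to 0.14 (rows added), and that in FAPs from 0.12 to 0.88. In mouse against rat cells, the 90% and 10% limit moved 22 of 27 ratios outside their counting interval, by up to 1.23, left 19 of 27 with the same sign and turned the EC sum from -0.23 to 0.68. No paired analysis was possible because each group had 1 library.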
